A study of Drosophila melanogaster with 2 samples.

Results

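The vacuolar proton pump (V-ATPase) was followed through its subunit genes in heads of adult Drosophila melanogaster fed with or without sucralose. Members were all genes whose FlyBase symbol starts with Vha and a digit, letter or hyphen, which gave 33 genes, against 12083 genes listed in the whole series. Of the 33, 28 carry an identifier within the range that the tables use, and 23 of these were listed in at least 1 table, 18 of them in both. Another 5 (Vha100-3, Vha16-2, Vha16-3, VhaAC39-2 and VhaM9.7-d) were in neither table, which list a gene only when it has a read. The last 5, Vha68-1, Vha44, Vha26, Vha13 and VhaAC39-1, carry identifiers newer than any in the tables and could not be matched, so no value is given for them. They encode a copy of subunit A and subunits C, E, G and d, and the account below has no gene for C, E and G and none with reads for d.

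Both groups were flies of strain w1118, a laboratory strain whose eyes are white. In 1 group they ate a standard diet for 6 days, and in the other the same diet with sucralose, a sweetener with almost no usable energy, for 6 days. The labels put their age at 4 to 7 days on entering the diets and at 10 to 14 days when heads were taken, and name no sex. There is 1 library per diet, so the diets cannot be tested against each other, no p-value is given and every difference compares 2 libraries. The control library held 10.3 M unique reads on 11521 genes and the sucralose library 10.4 M on 11588 genes. Eye and nerve transcripts were abundant: 12 listed photoreceptor markers summed to 74704 CPM (counts scaled to library size) on the control diet and 99271 on sucralose, and 9 neuron markers to 9174 and 8731. Where a pair of values follows without further words, the control library comes first.

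The V-ATPase is a rotary machine. Its cytosolic part, V1, splits ATP at subunits A and B and turns a central stalk of D and F, held in place by outer stalks and by C and H. The turning stalk drives a ring of c and c'' subunits in the membrane part, Vo, past subunit a, and protons cross there. The pump acidifies lysosomes, endosomes and synaptic vesicles, where the proton gradient also powers the loading of transmitters, and in fly epithelia such as the Malpighian tubule it energises ion transport across the cell surface. Several subunits have extra gene copies in flies, and some of these copies are transcribed mainly in the testis.

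The 23 listed genes fell into a clearly separate abundant and rare set. Levels are given as deposited RPKM, reads scaled by gene model length and library size, which allows an approximate comparison between genes. The deposited length is that of an annotated transcript for 8 of the 23. A mean RPKM over both libraries of at least 10 defined a widely expressed gene, and 15 genes met it. The member just inside was Vha36-3 with a mean of 19.3, and the member just outside was Vha36-2 with 0.261, so the split lies in an interval 73.9-fold wide that holds no member. All 15 widely expressed genes ranked within the top 33.2% of listed genes by mean RPKM, and 11 of them lay above 100, as did 764 genes in all. The 8 rare genes ranked in the bottom part, the best of them at 85.1% of the way down the list. Reads covered 81.25% to 99.63% of the gene model in the abundant set and at most 15.12% in the rare set. Together the listed members took 0.429% of control reads (0.425 to 0.433, exact Clopper-Pearson 95% interval) and 0.389% of sucralose reads (0.385 to 0.392).

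**Figure D1:**
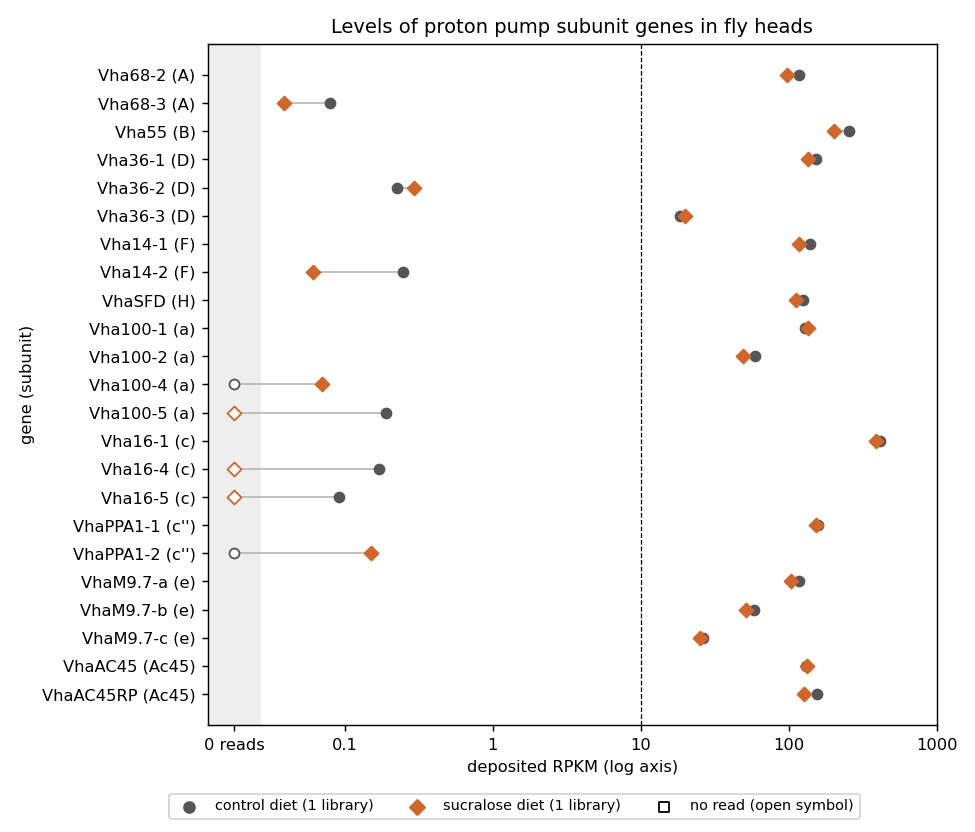
Deposited RPKM (log axis) of the 23 listed proton pump genes, ordered by subunit, with 1 circle for the control library and 1 diamond for the sucralose library. Open symbols in the grey band mark libraries with no read, and the dashed line is the RPKM of 10 that separates 15 widely expressed genes from 8 rare ones, which have at most 5 reads in a library.

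Among the widely expressed genes the ring subunit stood highest. Vha16-1 (FBgn0262736), which encodes the proteolipid c and is present in several copies per pump, had an RPKM of 413 and 388. Its level was 2.63 and 2.52 times that of VhaPPA1-1 (FBgn0028662), the single c'' proteolipid of the ring, at 157 and 154. Vha55 (FBgn0005671), the only gene for subunit B, came next after Vha16-1 at 255 and 203. Vha68-2 (FBgn0263598), which encodes the ATP-splitting subunit A, stood at 117 and 97.6. The Vha55 level was 2.19 and 2.08 times that of Vha68-2, although the pump uses A and B in equal numbers, and the unmatched Vha68-1 also encodes A. Vha36-1 (D) stood at 153 and 136, Vha14-1 (F) at 139 and 117 and VhaSFD (H) at 126 and 112, while Vha36-3, the other expressed gene for D, was far lower with a mean of 19.3. By RPKM, 9 of the 15 genes held the same place in both libraries, and Vha16-1, Vha55 and VhaPPA1-1 led in both. The largest move was that of Vha100-1, from place 8 to place 4. The places between Vha36-1 and VhaM9.7-a are close in level, and with 1 library per diet their order carries no replicate error.

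Most widely expressed subunit genes were slightly lower in the sucralose library, and none differed by 1.5-fold. Of the 15, 0 were at least 1.5-fold higher and 0 at least 1.5-fold lower, where 1.96% and 4.12% of all 8889 genes with at least 50 summed reads were. Below 0 on the log2 scale were 12 of 15 (80.0%), against 50.4% of all these genes. Counting intervals excluded no difference in the lower direction for 10 of 15 genes (66.7%, against 19.0% of all genes) and in the higher direction for 1 of 15 (6.67%, against 17.3%). These shares depend on depth, and the members are deeper than most genes. Among the 6105 genes over the floor with a mean RPKM of at least 10, 52.3% were below 0 and the median log2 difference was -0.01. The median of the 15 members was -0.18, with a range of -0.34 to 0.09. Their reads summed to 44069 and 40521, a fold of 0.902 (0.890 to 0.914).

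Markers of several cell types and of the gut differed between the same libraries, and their part in these differences was not tested. All 12 photoreceptor markers were above 0, with a median of 0.36, and 2 (Rh4 and ninaA) were at least 1.5-fold higher. For ninaA, 100% of the exon bases overlap a gene on the opposite strand. Of 10 glia markers, 6 were at least 1.5-fold lower (median -0.60), and the list summed to 3279 and 2075 CPM. The other 4 were close to no difference: repo (-0.06), moody (-0.13), wrapper (0.11) and loco (0.03). Of 11 muscle markers, 5 were at least 1.5-fold lower (median -0.56, 4481 and 3249 CPM). None of 9 neuron markers reached 1.5-fold, and their median was -0.04. All 8 gut markers over the floor were at least 1.5-fold lower, from 221 to 20.7 CPM over the list, with Jon99Cii at 197 reads and 0. Most of these 8 reached the floor only through their control reads. Under the floor were betaTry (20 and 10 reads), LysB (18 and 0) and LysX (6 and 10). Fat body markers were split, 2 higher and 1 lower of 7 (median 0.02). The 2 higher were the yolk protein genes Yp1 (20 and 113 reads) and Yp3 (569 and 1062), and the lower was Lsp2 (177 and 32). Antisense genes overlap 54.3% of the exon bases of Yp1 and 84.6% of those of Lsp2. The labels name no sex, and a part of sex in these differences was not tested. In whole heads, fewer cells of a type and less RNA per cell cannot be told apart. Where the gut marker reads in these head libraries came from was not tested.

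In V1, the ATP-splitting part, 5 of 6 widely expressed genes were lower. Vha55 had 7135 and 5762 reads, a fold of 0.792 (0.765 to 0.820), the lowest of the 15. Vha68-2, with 3042 and 2581 reads, was at 0.832 (0.790 to 0.877). Both encode the ATP-splitting head, and both intervals lie below no difference. Of the rotor genes, Vha14-1 had 933 and 802 reads and a fold of 0.843 (0.766 to 0.928), and Vha36-1 had 1703 and 1535 reads and a fold of 0.884 (0.825 to 0.948). VhaSFD, whose product H couples V1 to Vo, had 3200 and 2887 reads and a fold of 0.885 (0.841 to 0.931). The exception was Vha36-3, a second gene for D on the X chromosome, with 168 and 183 reads and a fold of 1.07 (0.862 to 1.33), within counting error of no difference. The 6 genes together gave 16181 and 13750 reads, a fold of 0.834 (0.815 to 0.853).

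In Vo, the membrane part, the summed difference was smaller than in V1, while single genes spanned a similar range. Vha100-2, at 0.833, was about as low as Vha68-2, VhaM9.7-a stood at 0.866 and VhaM9.7-b at 0.882, and Vha100-1 lay above 1. Vha16-1, with 12638 and 12057 reads, was at 0.936 (0.913 to 0.960), and VhaPPA1-1, with 2210 and 2201 reads, at 0.977 (0.921 to 1.04). The 7 Vo genes summed to 22636 and 21879 reads, a fold of 0.948 (0.931 to 0.966), so the V1 to Vo ratio of reads was 0.879 times as large in the sucralose library (0.854 to 0.905, exact conditional interval for counting error). That ratio leaves out the unmatched genes of C, E, G and d, and the unmatched Vha68-1 of A. Vha16-1 alone gave 12638 of the 22636 control reads of Vo, and the median log2 difference was -0.21 for the V1 genes and -0.10 for the Vo genes.

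**Figure D2:**
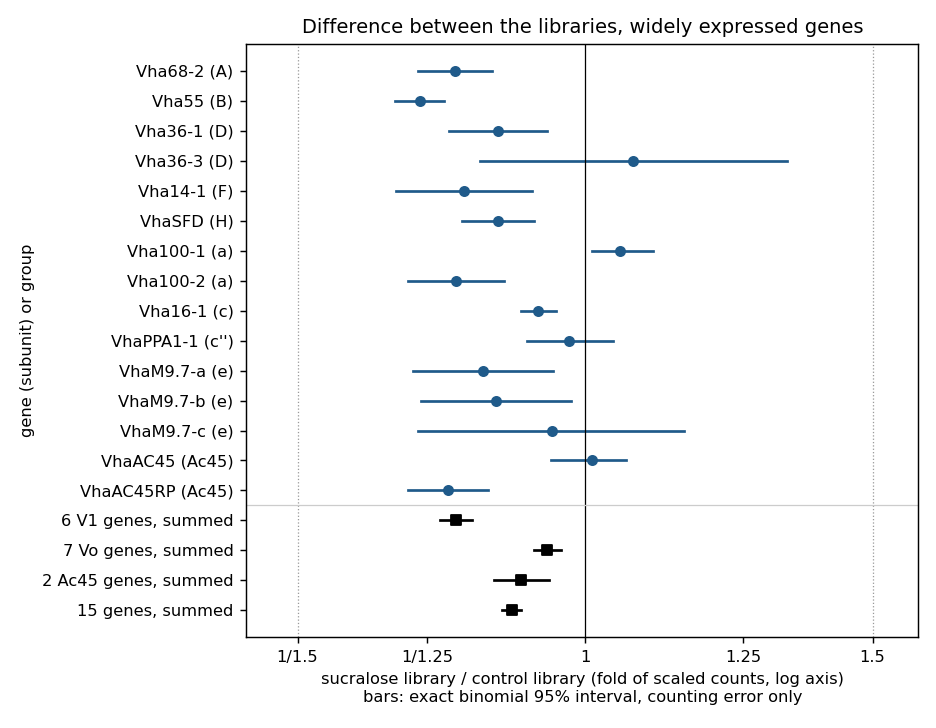
Fold of scaled counts, sucralose library over control library (log axis), for the 15 widely expressed genes and for summed groups, with exact binomial 95% intervals that cover counting error only. Vha55 lies lowest at 0.792, 3 genes (Vha36-3, Vha100-1 and VhaAC45) lie above 1, and no interval reaches the dotted 1.5-fold marks.

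Subunit a, through which the protons pass and which directs the pump to a membrane, is encoded by 5 genes, and the pair expressed in heads went in opposite directions. Vha100-1, the copy known for its work at synapses and in photoreceptor neurons, had 4123 and 4414 reads (RPKM 129 and 136). It was the only member whose interval lay above no difference, at 1.05 (1.01 to 1.10). Vha100-2 had 1841 and 1564 reads (RPKM 58.9 and 49.3) and a fold of 0.833 (0.779 to 0.892). Vha100-1 thus gave 68.7% of the subunit's RPKM on the control diet and 73.4% on sucralose, and Vha100-2 31.2% and 26.5%. The ratio of Vha100-1 to Vha100-2 was 1.26 times as large in the sucralose library (1.16 to 1.37). Marker medians were 0.36 for photoreceptors, -0.04 for neurons, -0.60 for glia, -0.56 for muscle and 0.02 for fat body. A part of these cell types in the ratio was not tested.

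The accessory subunit Ac45, which helps the pump assemble and reach its membranes, also comes from a pair of genes. VhaAC45 had 2580 and 2647 reads (RPKM 132 and 134), a fold of 1.01 (0.953 to 1.06). VhaAC45RP, a related gene known for acidifying synaptic vesicles in neurons, had 2672 and 2245 reads (RPKM 155 and 128), a fold of 0.824 (0.779 to 0.872). The VhaAC45 share of their summed RPKM was 46.1% on the control diet and 51.1% on sucralose, so the larger contributor by RPKM differed between the libraries. By reads its share was 49.1% (47.8 to 50.5) and 54.1% (52.7 to 55.5), and the control interval includes equal shares. The ratio of VhaAC45 to VhaAC45RP was 1.22 times as large in the sucralose library (1.13 to 1.32). The copies of a and of Ac45 that are known from neurons, Vha100-1 and VhaAC45RP, thus lay on opposite sides of no difference.

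For subunits e and D the intervals of the ratios between genes all included no difference, which does not show that the mix was the same. Subunit e, a small membrane protein of Vo, had reads from VhaM9.7-a (864 and 763), VhaM9.7-b (732 and 658) and VhaM9.7-c (228 and 222). Their folds were 0.866 (0.785 to 0.956), 0.882 (0.793 to 0.981) and 0.955 (0.790 to 1.15), so the first 2 intervals lie below no difference. VhaM9.7-a gave 58.3% and 57.2% of their RPKM, VhaM9.7-b 28.8% in each library and VhaM9.7-c 12.9% and 13.9%. Against VhaM9.7-b, the ratio differed between libraries by 0.982 for VhaM9.7-a (0.849 to 1.14) and by 1.08 for VhaM9.7-c (0.871 to 1.35), both within counting error. For subunit D, Vha36-1 gave 89.0% and 87.0% of the RPKM and Vha36-3 10.8% and 12.8%. The ratio of Vha36-3 to Vha36-1 was 1.21 times as large, close in size to that of the Ac45 pair, but with 168 and 183 reads of Vha36-3 its interval is wide (0.963 to 1.52).

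**Figure D3:**
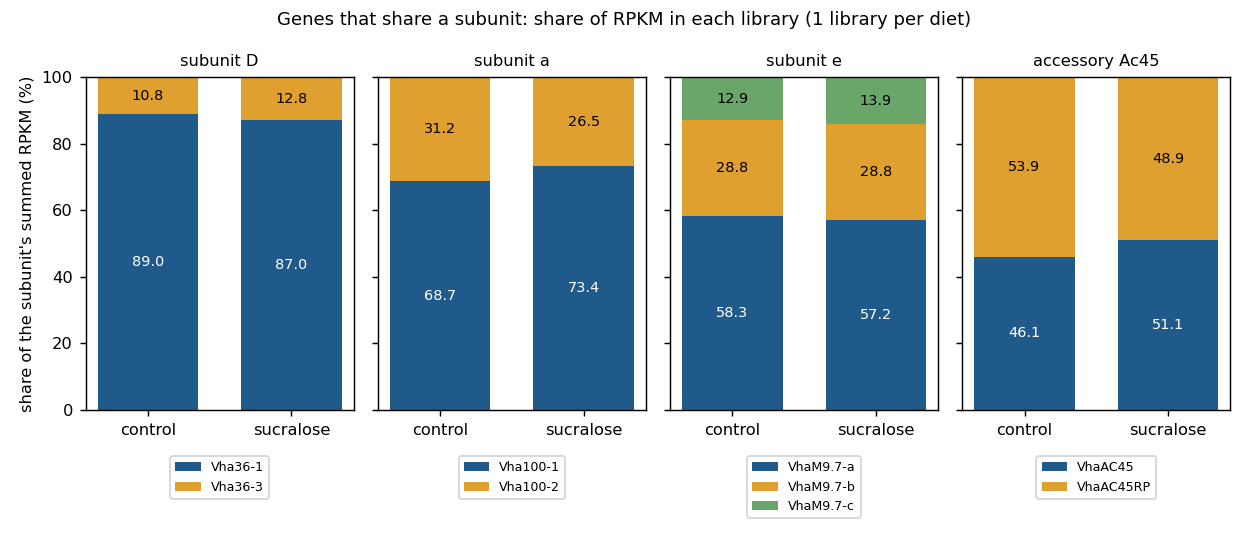
Share of a subunit's summed RPKM (%, stacked bars) given by each of its expressed genes in the control and the sucralose library, for subunits D, a and e and the accessory protein Ac45. The Vha100-1 share of subunit a is 68.7% and 73.4%, the VhaAC45 share of Ac45 is 46.1% and 51.1%, and the shares within e differ by at most about 1 percentage point.

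The 8 rare paralogues were close to the detection limit in both libraries and cannot be compared between diets. Their reads summed to 16 and 9 (fold 0.552, 0.215 to 1.33), against 44069 and 40521 for the abundant set. Vha36-2, the third gene for D, had 3 and 4 reads, and Vha14-2, the second gene for F, had 4 and 1 (fold 0.245, 0.00498 to 2.48). Vha68-3, the third gene for A, had 2 and 1. Of the extra copies of a, Vha100-5 had 5 reads and 0, at least 1.70-fold lower when the absent reads are set at 3 counts for that library, although the upper limit of the exact interval of the fold, 1.07, lies above 1. Vha100-4 had 0 and 2 reads. Vha16-4 and Vha16-5, extra genes for the proteolipid c, had 1 read each on the control diet and 0 on sucralose, and VhaPPA1-2, the second c'' gene, had 0 and 1. A count of 0 allows up to 3 reads, which is 0.292 and 0.288 CPM of all reads. For Vha100-5 in the sucralose library that limit is an RPKM of 0.113.

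Within a subunit the rare copies added almost nothing to the abundant one. Vha14-1 gave 99.8% and 99.9% of the RPKM of F, and Vha16-1 gave 99.9% of c on the control diet and all of its reads on sucralose. Vha36-2 gave 0.131% and 0.189% of D. Testis transcripts were near the limit in the same libraries. Of 18 testis markers, 8 (dj, aly, comr, ocn, ProtA, ProtB, Mst84Da and Mst84Db) were in neither table, none of the other 10 reached the floor, and these summed to 2.44 CPM and 3.73 CPM. Of 10 listed Malpighian tubule markers, 4 reached the floor, with most reads from Irk2 (1419 and 1016) and Best2 (1010 and 1093). Irk3 (226 and 144 reads) and Lkr (78 and 78) also reached it. Of these, only Irk3 was at least 1.5-fold lower, at 0.625 (0.504 to 0.774). Uro, the urate oxidase gene of that organ, had 1 read and 0, salt 1 and 0, NaPi-T 6 and 7 and ZnT35C 17 and 15. Which cells gave the Irk2 and Best2 reads was not tested, and these 2 genes alone do not show tubule RNA in the heads.

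In gene structure the rare and the abundant genes overlap, with fewer introns at the median in the rare ones, a difference that was not tested. The 5 unmatched genes stand in neither group. In the BDGP6.54 annotation, used here for gene structure and neighbours only, 6 of the 13 rare or unlisted genes have no intron, against 3 of the 15 widely expressed genes (Vha36-1, Vha14-1 and VhaM9.7-c). The largest number of introns of any annotated transcript had a median of 1 (range 0 to 3) in the rare genes and 3 (range 0 to 12) in the abundant ones. The rare genes had 1 to 3 annotated transcripts and the abundant genes 1 to 10, the most belonging to Vha100-1. Neighbouring genes could differ widely in level. Vha68-2 (RPKM 117 in the control) lies beside Vha68-3 (0.0794) on arm 2L, and Vha100-2 (58.9) lies beside Vha100-4 (no control read) on arm 3R. Vha16-2 and Vha16-3, neighbours on 3L, were both in neither table. None of the 23 listed members shares 20% or more of its exon bases with another gene. Vha100-5 comes nearest, at 18.1%, the partner being an antisense gene.

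Genes that assemble or regulate the pump were mostly slightly above 0. Of 12 with at least 50 reads, none reached 1.5-fold in either direction, 9 were above 0 and the median was 0.09, where the subunits had -0.18 and all genes 0.0. Rbcn-3A and Rbcn-3B, the rabconnectin genes that promote pump assembly, had 4218 and 4642 reads and 1707 and 1759 reads, with folds of 1.08 (1.04 to 1.13) and 1.01 (0.945 to 1.08). Mitf, the transcription factor that drives pump and lysosome genes in flies, had 976 and 1090 reads and a fold of 1.10, with an interval that starts at no difference when rounded and ends at 1.20. The most abundant gene of the list, mtd, had 9344 and 9510 reads (0.998, 0.970 to 1.03). The Ragulator gene Lamtor5, part of the complex that links the pump to nutrient signalling on lysosomes, differed most with 201 and 273 reads (1.33, 1.11 to 1.61), followed by CG5969 (1.22, 0.917 to 1.63) and Lamtor4 (1.17, 0.943 to 1.45). Lamtor2 was in neither table, and CG7071 had 3 and 2 reads. ATP6AP2, an accessory subunit gene formerly named VhaM8.9 and singled out after its values were seen, had 2627 and 2351 reads (0.878, 0.830 to 0.929), a difference of -0.19 on the log2 scale that lies near the median of the Vha genes.

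Lysosomal genes showed no common direction, while more vesicular transporter and exchanger genes lay below 0 than above. Of 17 lysosomal genes over the floor, 9 were above 0 and 8 below, with a median of 0.01. Sap-r, the saposin precursor and the most abundant, had 11853 and 12826 reads (1.06, 1.04 to 1.09). The lysosomal transporter gene spin had 1583 and 2197 reads (1.36, 1.28 to 1.45), while Cln3, a lysosomal membrane protein gene, had 228 and 105 reads (2.21-fold lower, 1.75 to 2.82) and the hexosaminidase gene Hexo2 had 744 and 476 (1.59-fold lower, 1.42 to 1.79). These were the 2 members at least 1.5-fold lower, and CtsD could not be matched. Of 4 listed genes for proton-driven vesicular transporters of neurons, 3 were below 0 (prt only just), with a median of -0.13. Of all genes over the floor, 50.4% were below 0. VGAT for GABA had 1228 and 1012 reads (0.808, 0.743 to 0.879) and VGlut for glutamate had 3388 and 2881 (0.834, 0.794 to 0.877). Vmat for amines had 4556 and 4963 (1.07, 1.03 to 1.11), although 26.2% of its exon bases overlap a gene on the opposite strand, and prt had 233 and 237 (0.998, 0.829 to 1.20). VAChT and Lovit could not be matched. Among 7 exchanger genes 5 were below 0 (Nhe3 only just), with a median of -0.1. The sodium-proton antiporter gene Nha1 was 2.31-fold lower (256 and 113 reads, 1.84 to 2.91) and the other 6 lay within 1.5-fold. Nhe1 had 506 and 415 reads (0.805, 0.705 to 0.918), Nhe3, the highest by RPKM, 3162 and 3213 (0.997, 0.949 to 1.05), and Nhe2 3688 and 3139 (0.835, 0.796 to 0.876), although 50.7% of its exon bases overlap another gene.

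The summed reads of other ion-moving ATPases were lower by more than those of the matched proton pump genes, though not every gene was. The mitochondrial ATP synthase, the rotary relative of the V-ATPase that makes ATP, had all 12 genes over the floor below 0, with a median of -0.33 and a summed fold of 0.803 (0.794 to 0.812). Its ring gene ATPsynC, the highest by RPKM, had 14798 and 12422 reads (0.824, 0.804 to 0.843), and ATPsyngamma, ATPsynD and ATPsynO had the largest differences, at 0.748 (0.711 to 0.788), 0.754 (0.712 to 0.800) and 0.753 (0.712 to 0.797). The 4 sodium pump genes had a median of -0.43 and a summed fold of 0.753 (0.745 to 0.761). Its catalytic gene Atpalpha had 53220 and 41810 reads (0.771, 0.761 to 0.781), nrv3 had 19082 and 13835 (0.711, 0.696 to 0.727), and nrv2, which also stands in the glia list, had 4211 and 2472 (1.74-fold lower, 1.65 to 1.83). The fourth, nrv1, had 3089 and 2967 reads (0.942, 0.896 to 0.991), closer to no difference than the summed proton pump genes, as was ATPsynE of the ATP synthase with 1381 and 1343 reads (0.954, 0.884 to 1.03). The summed fold of the widely expressed proton pump genes was 0.902, and its interval (0.890 to 0.914) does not overlap those of the other pumps. That sum leaves out the unmatched Vha68-1, Vha44, Vha26, Vha13 and VhaAC39-1, most of them V1 genes. The ATP synthase and sodium pump lists had no unmatched gene, so the sums are not equally complete. No test over libraries is possible, so this order describes these 2 libraries.

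**Figure D4:**
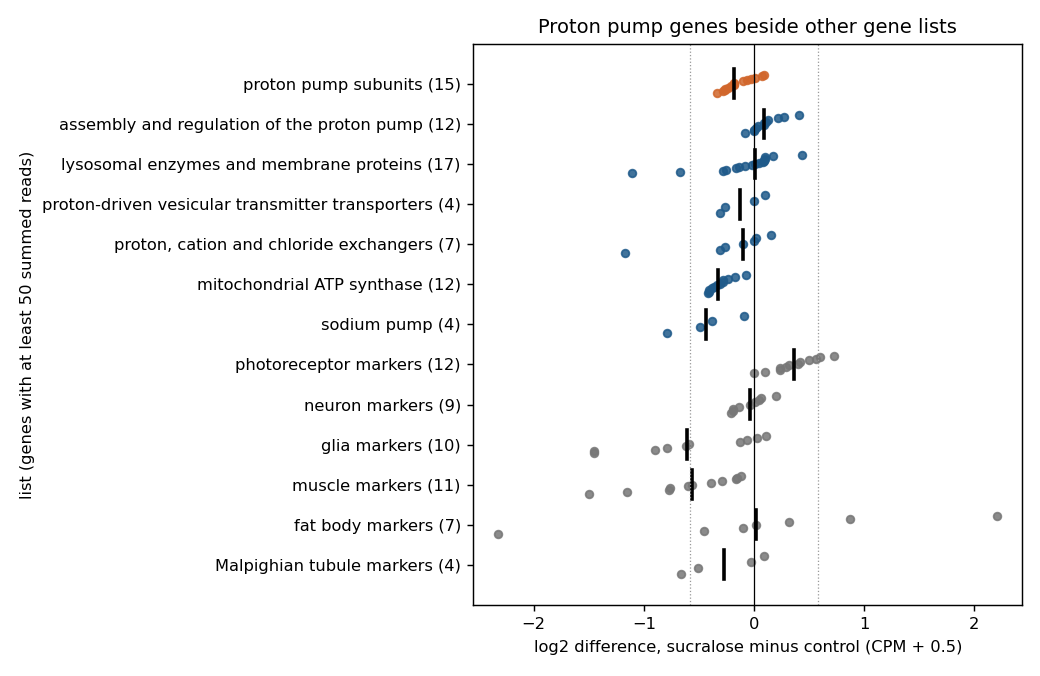
Log2 difference of CPM + 0.5, sucralose minus control, for each gene with at least 50 summed reads, by list, with the number of genes in brackets, black bars for medians and dotted lines at 1.5-fold. The 15 proton pump genes lie between -0.34 and 0.09 with a median of -0.18, between the assembly list (0.09) and the mitochondrial ATP synthase (-0.33), and the gut markers, all at least 1.5-fold lower, are not drawn.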

How the data were processed

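Head RNA was extracted with Trizol and sequenced after standard Illumina library preparation, per the labels' protocols. The authors deposited 1 table per library with raw counts of unique reads per FlyBase gene, RPKM, the gene model's length and its coverage in percent, per the file headers. The deposited counts sum to the header total, and the deposited RPKM equals count over length and that total. The sources used here name no aligner, build, annotation or strand, so a gene and its antisense partner may share reads, and counting unique reads may miss those of near-identical copies.

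Symbols came from tables of gene identifiers (493 of 12083 genes unmatched). Counts were scaled with TMM in edgeR 4.0.16 (R 4.3.3). The difference of a gene is that of log2(CPM + 0.5) between the sucralose and the control library, for genes with at least 50 summed reads, and the call mark is 1.5-fold. Folds are ratios of scaled counts with exact binomial 95% intervals. These intervals and the 3-count limit cover counting error only, since PCR reads are not independent molecules. Other steps ran in Python 3.11.15 with SciPy 1.17.1, pandas 2.3.3 and numpy 2.4.6, and the code was tested on simulated data.

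Members and lists were chosen with earlier results of these data known. Every matched Vha gene is named, and from each other list the most abundant member and up to 3 by size of difference, with a few more named for their role. Lists called markers are given by counts. Alternatives were other scalings, pseudocounts of 0.1 and 5, no floor or a floor of 200, splits at an RPKM of 5 and 20, and leaving out members with shared exons. No protein, promoter or other sequence was used here.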

Additional observations from a re-analysis of the deposited data

How the results depend on the processing

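The proton pump results kept their direction and their side of the 1.5-fold mark under total-count, upper-quartile and median-ratio scaling, median centring and both pseudocounts. The summed fold of the widely expressed genes ranged from 0.901 to 0.910 over the other scalings and splits and their median difference from -0.18 to -0.16. No gene's log2 difference moved by more than 0.02 under these scalings, which shift all genes almost alike, or under the pseudocounts. Without a floor, 1 member (Vha100-5, 5 reads and 0) was counted as at least 1.5-fold lower and 17 members were below 0. With a split at an RPKM of 20, Vha36-3 joins the rare genes and their summed fold becomes 1.02 in place of 0.552. Chosen after seeing the data, the summed fold of the abundant genes was 0.888 without Vha16-1 and 0.923 without Vha55. None of the 23 listed members shares enough exon bases to be left out (Vha16-2, with 84.5% shared, has no reads), so that alternative tested nothing. The background counts moved with the settings: of all genes, 174 were at least 1.5-fold higher and 366 lower, against 61 and 206 with a pseudocount of 5 CPM, 459 and 695 without a floor, and 84 and 216 with a floor of 200 reads. No paired analysis was possible because each diet has 1 library, and no replicate could be left out. Depth leaves the rare genes, with at most 5 reads in a library, beyond comparison.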

Other observations

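Coverage of the gene models was even across the abundant set, with 1 member apart. Reads covered 94.76% or more of the model in both libraries for 14 of the 15 widely expressed genes. VhaM9.7-b, with 732 and 658 reads on a model of 1216 bases, was covered over 88.73% on the control diet and 81.25% on sucralose. VhaM9.7-c, with fewer reads (228 and 222 on 848 bases), was covered over 95.75% and 95.40%. The gene was singled out after its values were seen. The deposited length matches an annotated BDGP6.54 transcript for 8 of the 23 listed members, VhaM9.7-b among them, and 7 genes of the whole series, none of them a proton pump gene, have different lengths in the tables of the 2 libraries.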
